A study of Homo sapiens with 18 samples.

Results

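The human globin genes were followed in 3 derivatives of K562, a human chronic myeloid leukemia line with erythroid features, to ask how they were expressed and how open their chromatin was with wild-type or mutant BASP1. The 10 genes were HBZ, HBM, HBA2, HBA1 and HBQ1 of the alpha cluster and HBE1, HBG2, HBG1, HBD and HBB of the beta cluster, found by symbol among the 28395 genes of each RNA-seq table. The chromatin data were the ATAC-seq regions within 50 kb of either cluster, 34 of the 85549 merged regions of the series. V-K562 cells were the control line, which carried the empty vector and no BASP1 transgene. B-K562 cells expressed wild-type BASP1, a transcriptional cofactor that is myristoylated at its N terminus, and G-K562 cells carried the mutant BASP1-G2A, to which no myristate can be attached. Each line was a pool of stably transfected cells kept under G-418, not a single clone, and was assayed in 3 replicate cultures for each method.

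Hemoglobin is a tetramer of alpha-type and beta-type chains around heme. In each cluster the genes lie in the order in which they are used in development. HBZ and HBE1 encode the embryonic chains, HBG1 and HBG2 the fetal gamma chains, HBA1 and HBA2 the alpha chains of fetal and adult hemoglobin, and HBD and HBB the adult delta and beta chains. HBM and HBQ1 are alpha-type genes of uncertain product. Distal enhancers drive both clusters. Those of the alpha cluster, named MCS-R1 to MCS-R4, lie upstream of HBZ, the first of them inside introns of NPRL3, and the beta cluster has the locus control region upstream of HBE1, a row of hypersensitive sites named HS1 to HS5. K562 cells are known for embryonic and fetal globins and for very little HBB.

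The RNA-seq values were read counts divided by a size factor and rounded, called normalized read counts here, so their totals (32074895 to 33229588 per library) do not show sequencing depth. Fold changes were taken on the log2(value + 1) scale, which understates those of low values. BASP1 itself read 5 to 7 in the V-K562 libraries, 6189 to 6849 in those of B-K562 and 8124 to 12538 in those of G-K562. The RNA-seq libraries with and without a BASP1 transgene thus followed their labels. Values per gene do not tell wild-type BASP1 from BASP1-G2A, and the ATAC-seq libraries were not checked in this way. The erythroleukemia markers checked, among them GATA1, TAL1, LMO2, TFRC, EPOR and WT1, were above 10 in every library. Between 47111 and 55570 ATAC-seq peaks were called per library. The lines also differed widely outside the globin genes, and the share of all genes or regions called is given with the main counts below. Since the cells were measured in bulk, fewer cells making a globin and less of its RNA per cell cannot be told apart.

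Regions of the clusters that differed in peak presence or height are shown here because the chromatin results turn on them. Each line gives the 200 bases around the highest summit on the plus strand of GRCh38. Capitals mark matches on either strand to a GATA motif (AGATAA, where the first letter may also be T and the last may also be G), the NF-E2 and AP-1 motif (TGANTCA) or a CACCC box (CCNCNCCC).
HS3, chr11:5284604-5284803: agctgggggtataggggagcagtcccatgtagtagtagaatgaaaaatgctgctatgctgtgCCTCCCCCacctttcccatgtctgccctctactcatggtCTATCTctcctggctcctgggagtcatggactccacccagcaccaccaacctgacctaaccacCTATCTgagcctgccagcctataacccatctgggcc
HS5, chr11:5291292-5291491: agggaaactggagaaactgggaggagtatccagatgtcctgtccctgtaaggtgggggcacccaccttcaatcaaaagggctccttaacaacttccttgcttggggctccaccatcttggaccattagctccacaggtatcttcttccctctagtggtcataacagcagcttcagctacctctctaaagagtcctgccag
region upstream of HBG2, chr11:5258684-5258883: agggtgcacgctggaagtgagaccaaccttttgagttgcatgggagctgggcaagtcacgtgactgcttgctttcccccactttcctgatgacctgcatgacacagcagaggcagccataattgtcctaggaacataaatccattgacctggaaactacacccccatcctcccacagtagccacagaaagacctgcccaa
MCS-R1, chr16:105052-105251: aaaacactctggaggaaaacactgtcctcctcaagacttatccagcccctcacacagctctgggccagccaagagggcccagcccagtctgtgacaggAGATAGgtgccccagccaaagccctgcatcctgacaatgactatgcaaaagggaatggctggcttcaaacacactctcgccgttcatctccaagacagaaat
MCS-R3, chr16:119964-120163: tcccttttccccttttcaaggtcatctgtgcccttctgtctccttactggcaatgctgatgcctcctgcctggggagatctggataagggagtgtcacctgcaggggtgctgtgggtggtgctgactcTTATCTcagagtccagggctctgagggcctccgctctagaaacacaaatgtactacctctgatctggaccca
MCS-R4, chr16:143100-143299: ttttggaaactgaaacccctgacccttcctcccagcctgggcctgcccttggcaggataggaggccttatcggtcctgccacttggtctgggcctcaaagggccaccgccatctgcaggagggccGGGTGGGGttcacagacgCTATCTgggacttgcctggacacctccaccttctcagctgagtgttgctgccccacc
HS3 held 2 GATA matches and 1 CACCC box, MCS-R4 held 1 GATA match and 1 CACCC box, and MCS-R1 and MCS-R3 held 1 GATA match each. HS5 and the region upstream of HBG2 held none of these letters in the window. Over all 85549 windows of this length, 36.0% held a GATA match, 17.1% an NF-E2 and AP-1 match and 34.6% a CACCC box. Among the 34 windows of the clusters 17 held a GATA match, 7 an NF-E2 and AP-1 match and 12 a CACCC box.

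In V-K562 the embryonic and fetal beta-type genes carried most of the globin RNA. Per kb of exon, HBG2 stood highest with 64680 ± 5849 (SD, n = 3), followed by HBE1 with 46888 ± 4415 and HBG1 with 14674 ± 2124, and the libraries of these 3 genes did not overlap. HBA2 (1648 ± 239.7 per kb) and HBZ (1641 ± 331.4 per kb) came next and overlapped each other. Below them were HBQ1 with 608 ± 96.8 per kb, HBA1 with 314 ± 64.9, HBD with 131 ± 4.89 and HBB with 11.7 ± 0.922, and HBM was near 0. The exons counted for HBZ include one of 1037 bases more than 9 kb upstream of its start, and over the other 672 bases alone its level in V-K562 would be 4173 per kb, above that of HBA2.

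The order of levels was not the same in every line. In B-K562 HBZ (7554 ± 105 per kb) stood just above HBA2 (7116 ± 273 per kb) with no overlap, while HBQ1 and HBA1 overlapped. In G-K562 HBE1 came first with 23480 ± 3584 per kb and HBG2 followed with 9342 ± 227 per kb. HBZ and HBQ1 stood at 287 ± 70.5 and 242 ± 38.4 per kb there, and their libraries overlapped. The places of HBZ beside HBA2 and HBQ1 rest on all its counted exons. Division by the 672 bases without the far exon would raise its level in every line. The plot of globin levels by library shows these values on a log axis.

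**Figure D1:**
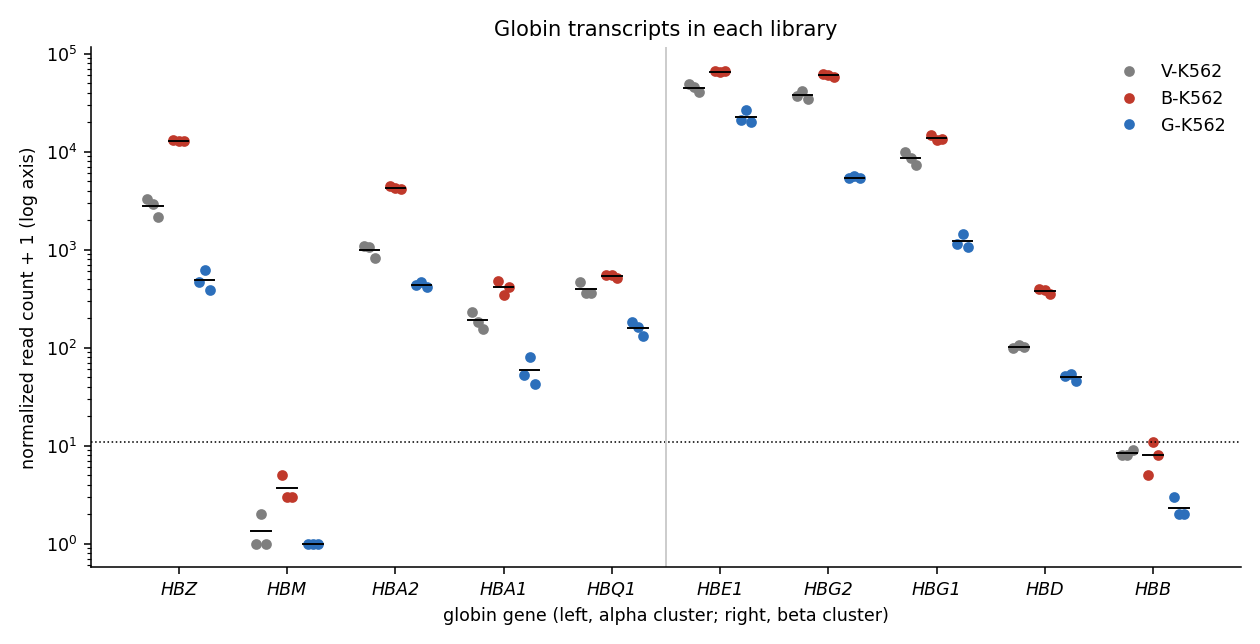
Normalized read count plus 1 of each globin gene on a log axis, 1 point per library and a bar at the mean of the 3 libraries of a line. The dotted line marks the minimum value of 10 for testing. V-K562 and B-K562 values are from one deposited table and G-K562 values from the other, on which V-K562 reads 1.017 times higher, and in all 8 genes above the line the B-K562 points are above and the G-K562 points below the V-K562 points.

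Wild-type BASP1 was accompanied by more globin RNA of every member that could be tested. Of the 10 genes, 8 passed the minimum value of 10 in 3 libraries, and all 8 rose in B-K562 against V-K562 (limma, Benjamini-Hochberg adjusted p of at most 0.05), where 38.6% of the 14958 genes tested rose and 37.2% fell. With a 2-fold change required as well, 4 members were called higher (6.46% of all genes tested) and 0 lower (14.1%). The median log2 fold change of the 8 members was 0.91, beside 0.007 for all genes tested. With BASP1-G2A the direction was the other one. All 8 members fell in G-K562 against V-K562 and each fell at least 2-fold, where 33.3% of the 15271 genes tested fell and 33.5% rose, and 10.3% were called lower and 8.81% higher with the 2-fold rule. Their median log2 fold change was -1.55, beside 0.003 for all genes. HBE1 and HBD were close to the 2-fold line, and 6 to 8 members remained past it when single libraries were left out. These comparisons share the V-K562 libraries, so their values are set side by side here and G-K562 was also tested directly against B-K562.

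HBZ (Entrez 3050, chr16:142053-154505), the embryonic alpha-type chain, had the largest rise among the members. It read 3283, 2950 and 2179 in V-K562, 13104, 12872 and 12751 in B-K562 and 466, 622 and 385 in G-K562. The 3 lines did not overlap. HBZ rose 4.67-fold in B-K562 (log2 2.22, SE 0.11; limma adjusted p = 5.4e-10) and changed by -2.54 on the log2 scale in G-K562 (SE 0.17; limma adjusted p = 1.6e-07).

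HBA2 (Entrez 3040, chr16:172847-173710) and HBA1 (Entrez 3039, chr16:176651-177522) encode the same alpha chain. HBA2 read 1091, 1070 and 830 in V-K562, 4486, 4266 and 4163 in B-K562 and 432, 469 and 412 in G-K562. HBA1 read 232, 184 and 154 in V-K562, 482, 346 and 411 in B-K562 and 52, 80 and 42 in G-K562. For both genes every B-K562 library was above and every G-K562 library below every V-K562 library. HBA2 rose by 2.12 on the log2 scale in B-K562 (SE 0.09; limma adjusted p = 1.2e-10) and HBA1 by 1.12 (SE 0.14; limma adjusted p = 8.3e-06), or 0.98 without V-K562 replicate 3. In G-K562 the changes were -1.20 for HBA2 (SE 0.11; limma adjusted p = 1.4e-06) and -1.75 for HBA1 (SE 0.22; limma adjusted p = 3.2e-05). The split between the copies is uncertain, because 80.7% of the 75-base stretches of the HBA1 transcript also occur in HBA2 and only uniquely mapped reads were kept. Summed, the pair changed by 2.0 (SE 0.09) in B-K562 and by -1.27 (SE 0.11) in G-K562 on the log2 scale.

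HBQ1 (Entrez 3049, chr16:180334-181179), the theta gene at the far end of the alpha cluster, moved least of the alpha-type genes in B-K562. It read 470, 359 and 362 in V-K562, 546, 547 and 509 in B-K562 and 182, 160 and 132 in G-K562. The highest V-K562 library came close to the lowest B-K562 library, and still the lines did not overlap. HBQ1 rose by 0.44 on the log2 scale in B-K562 (SE 0.10; limma adjusted p = 0.0011) and changed by -1.35 in G-K562 (SE 0.14; limma adjusted p = 6.2e-06). HBM (Entrez 3042, chr16:165974-166768), the mu gene, was too low to test, with 0, 1 and 0 in V-K562, 4, 2 and 2 in B-K562 and 0 listed in each G-K562 library.

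HBE1 (Entrez 3046, chr11:5268345-5281945), the embryonic epsilon chain, had the highest value of any member in each line before division by exon length. Reads that fit both gamma genes were not kept, so the values of HBG1 and HBG2 may be low beside it. HBE1 values were as follows. It read 48550, 46053 and 40294 in V-K562, 66612, 64551 and 65851 in B-K562 and 20900, 26464 and 20187 in G-K562. HBE1 rose 1.46-fold in B-K562 (log2 0.55, SE 0.07; limma adjusted p = 4.4e-06), below the 2-fold rule. It changed by -1.03 in G-K562 (SE 0.10; limma adjusted p = 3.9e-06), the smallest fall of the 8.

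The gamma genes HBG2 (Entrez 3048, chr11:5253191-5254781) and HBG1 (Entrez 3047, chr11:5248272-5249857) encode the fetal chains. HBG2 read 37150, 41363 and 34612 in V-K562, 62047, 61065 and 58217 in B-K562 and 5396, 5597 and 5347 in G-K562. HBG1 read 9830, 8528 and 7350 in V-K562, 14793, 13059 and 13381 in B-K562 and 1145, 1439 and 1055 in G-K562. Both genes were modestly higher in B-K562 and far lower in G-K562, with no overlap between lines. The log2 changes in B-K562 were 0.68 for HBG2 (SE 0.07; limma adjusted p = 4.2e-07) and 0.69 for HBG1 (SE 0.08; limma adjusted p = 5.2e-06). In G-K562 they were -2.81 for HBG2 (SE 0.07; limma adjusted p = 8.8e-11) and -2.85 for HBG1 (SE 0.12; limma adjusted p = 4.1e-09). By size of fall among the 15271 genes tested, HBG1 was in place 340 and HBG2 in place 348. Of the 75-base stretches of HBG1, 61.0% also occur in HBG2, and the summed pair changed by 0.68 (SE 0.07) and -2.82 (SE 0.07).

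HBD (Entrez 3045, chr11:5232829-5234628), the minor adult delta chain, had the largest fold rise of the beta-type genes in B-K562. It read 99, 106 and 100 in V-K562, 397, 387 and 355 in B-K562 and 51, 53 and 45 in G-K562. The spread within each line was small and the lines did not overlap. HBD rose 3.71-fold in B-K562 (log2 1.89, SE 0.10; limma adjusted p = 8.5e-10) and changed by -1.05 in G-K562 (SE 0.15; limma adjusted p = 5.8e-05). HBB (Entrez 3043, chr11:5225466-5227071), the major adult beta chain, was not tested because it stayed at or below 10, with 7, 7 and 8 in V-K562, 4, 10 and 7 in B-K562 and 2, 1 and 1 in G-K562. B-K562 and V-K562 overlapped for HBB, and every G-K562 library was below both.

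With BASP1-G2A in place of wild-type BASP1, every tested globin was lower. In G-K562 against B-K562 all 8 members fell and all 8 were called lower with the 2-fold rule, where 40.5% of the 15521 genes tested fell and 38.1% rose, and 12.5% were called lower and 17.4% higher. HBZ differed most, by -4.77 on the log2 scale (SE 0.15; limma adjusted p = 2.2e-12), which put it in place 56 of the 15521 by size of fall. HBG1 followed with -3.54 (SE 0.11; limma adjusted p = 1.8e-12) and HBG2 with -3.50 (SE 0.06; limma adjusted p = 2.0e-14). The differences were -3.32 for HBA2 and -2.93 for HBD, and HBE1 showed the smallest difference, -1.58 (SE 0.09; limma adjusted p = 8.7e-10). Both tables were placed on one scale through their shared V-K562 libraries for this test. The plot of fold changes shows the 3 comparisons for each gene.

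**Figure D2:**
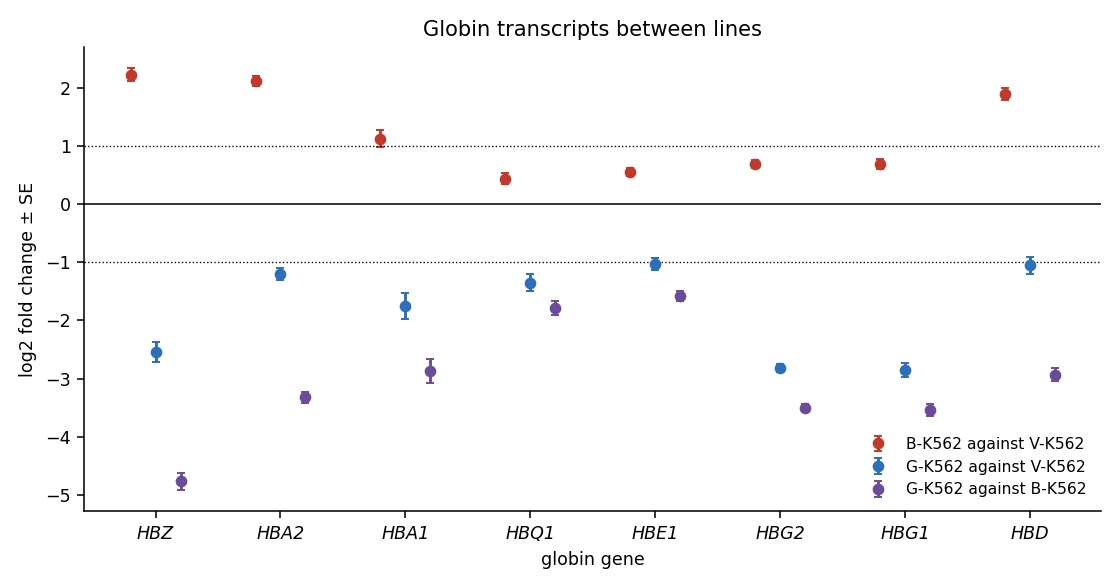
Log2 fold change with its SE (limma, 3 libraries per line) of the 8 tested globin genes in 3 comparisons. Dotted lines mark a 2-fold change. B-K562 against V-K562 lies between 0.44 and 2.22, G-K562 against V-K562 between -2.85 and -1.03, and G-K562 against B-K562 between -4.77 and -1.58.

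The make-up of the globin RNA was compared between lines by shares and ratios. By the paper's methods duplicates were removed and only uniquely mapped reads kept, so these describe the kept reads. Reads that fit both HBA1 and HBA2, or both HBG1 and HBG2, were not kept. The sums of these pairs may therefore be low beside HBZ and HBE1, and the size of these losses was not tested. All 10 genes together held 0.295% ± 0.0271 of the summed values of a V-K562 library (SD, n = 3), 0.478% ± 0.0105 in B-K562 and 0.0935% ± 0.0125 in G-K562. The alpha cluster's share was 0.0135% ± 0.00252 in V-K562, 0.0548% ± 0.00119 in B-K562 and 0.00352% ± 0.000562 in G-K562, and that of the beta cluster was 0.282% ± 0.0247, 0.423% ± 0.00932 and 0.090% ± 0.0119. The ratio of beta-cluster to alpha-cluster values was 18.8, 21.1 and 23.4 in V-K562, 7.72, 7.71 and 7.73 in B-K562 and 24.3, 25.2 and 27.4 in G-K562. The alpha cluster thus held a larger part of the globin RNA in every B-K562 library than in any library of the other lines.

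Within the beta cluster, the kept reads of HBE1 and of the gamma genes were close to balance in V-K562. HBE1 was there at 1.03, 0.923 and 0.960 times the sum of HBG1 and HBG2. The ratio was 0.867, 0.871 and 0.920 in B-K562 and 3.20, 3.76 and 3.15 in G-K562, so HBE1 made up the greater part of the kept reads in all 3 G-K562 libraries. Within the alpha cluster, HBZ was 2.48, 2.35 and 2.21 times HBA1 plus HBA2 in V-K562, 2.64, 2.79 and 2.79 times in B-K562 and 0.963, 1.13 and 0.848 times in G-K562. The ratio of HBA2 to HBA1 was 5.31 ± 0.552 in V-K562, 10.6 ± 1.56 in B-K562 and 7.99 ± 1.99 in G-K562. HBG2 to HBG1 was 4.45 ± 0.582, 4.41 ± 0.246 and 4.56 ± 0.605, and its libraries overlapped between all lines.

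With 3 libraries against 3, a two-sided exact permutation test cannot go below p = 0.10. That smallest value was reached in all but 4 of the 24 comparisons of shares and ratios (Benjamini-Hochberg adjusted p = 0.12), so none passed 0.05. The exceptions were the 3 comparisons of HBG2 to HBG1 (exact permutation p = 0.70 to 0.90) and HBA2 to HBA1 in G-K562 against B-K562 (exact permutation p = 0.20). The bar plots of the globin make-up show each library.

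**Figure D3:**
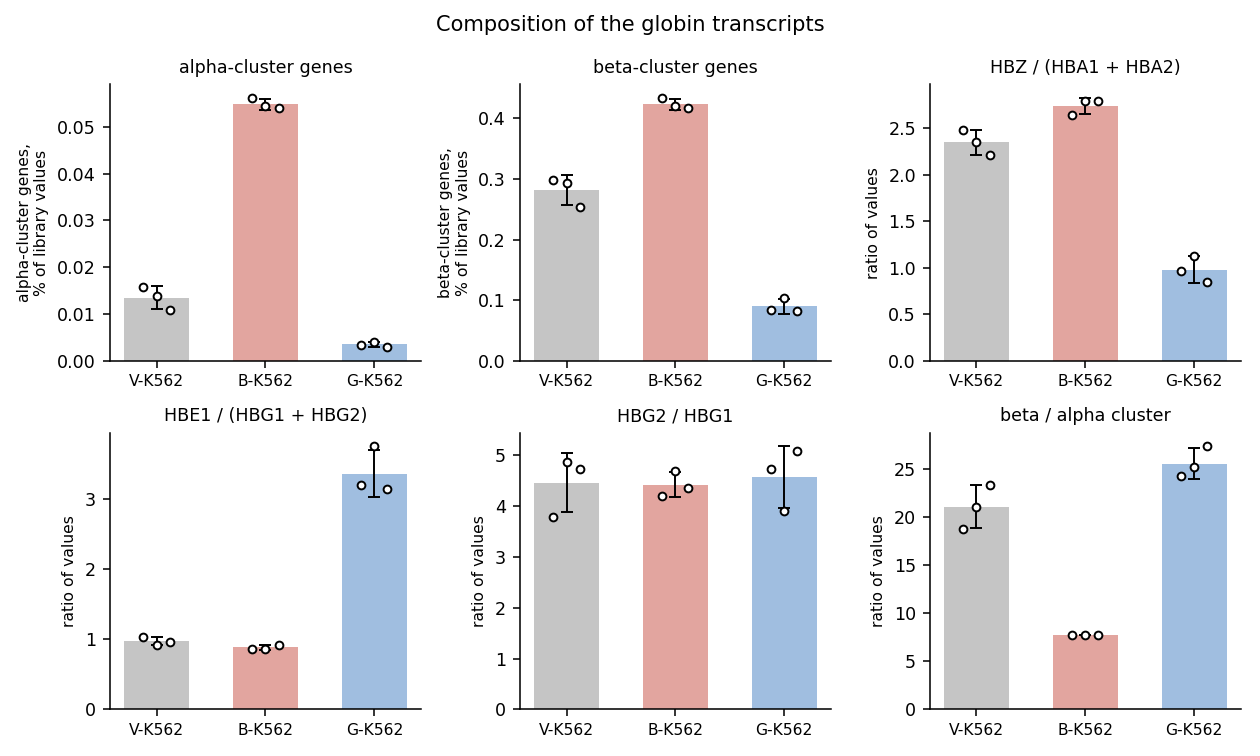
Share of the summed library values held by each cluster (percent) and 4 ratios between globin genes. Bars and error bars give the mean and SD of 3 libraries and circles the libraries. The beta-to-alpha ratio is lowest in B-K562 (7.71 to 7.73) and the HBE1-to-gamma ratio highest in G-K562 (3.15 to 3.76).

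ATAC-seq measures accessible DNA by transposase insertion, and the value used here is the highest pileup of tags at a peak summit within a merged region. Each cluster window held 17 regions, of which 9 around the alpha cluster and 7 around the beta cluster had a peak in all 9 libraries. Over the regions with a peak in every library compared, the median log2 fold change against V-K562 was 0.53 in B-K562 and 0.17 in G-K562 around the alpha cluster and -0.14 and -0.40 around the beta cluster, beside 0.02 and 0.015 for all such regions. A library without a called peak was set to a floor of 17 tags for the test, so a fold involving such a library is set by that floor and is not a measured ratio. A region that entered the test only through the line where it was peaked had to differ, so such regions are described by their peaks, without their p-values. Pileups of G-K562 libraries ran higher, and the scaling divided them by 1.09 to 1.16 and those of V-K562 by 0.871 to 0.897.

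Among the regions with a peak in every library compared, 0 of 18 were called higher and 0 lower in B-K562 against V-K562 (limma), where 0.655% and 3.22% of all 32198 such regions were. In G-K562 against V-K562, 1 of 17 was called higher (1.39% of 30775) and 1 lower (7.79%), and in G-K562 against B-K562, 1 of 16 was called higher (2.76% of 26984) and 1 lower (6.29%). With 3 peaks in any of the libraries as the minimum, 2 of 27 were called higher and 1 lower in B-K562 against V-K562 (1.53% and 6.15% of all 52204 regions tested), 1 of 24 higher and 3 lower in G-K562 against V-K562 (2.87% and 13.1% of 54213), and 2 of 29 higher and 8 lower in G-K562 against B-K562 (4.28% and 8.60% of 60181). The calls added by this rule compare peaks with the floor, in whole or in part. With equal tags as the only scaling, 4 were higher and 1 lower in B-K562 against V-K562 (1186 and 2311 of all regions), 3 higher and 2 lower in G-K562 against V-K562 (4324 and 4595), and 2 higher and 6 lower in G-K562 against B-K562 (4160 and 4502), and the median of all regions against V-K562 moved to 0.06 in B-K562 and 0.19 in G-K562.

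The locus control region had a site that was peaked only in B-K562. Regions were matched to the known sites by the distance of their summit upstream of the HBE1 start. HS3 (chr11:5284556-5285050, 14.8 kb upstream, outside any annotated gene of the tables) had summits of 115, 108 and 126 tags in B-K562 and no called peak in any V-K562 or G-K562 library. Against the floor this is a log2 difference of 2.63 from V-K562 and of -2.72 between G-K562 and B-K562, and with a floor of 10 tags it would be 3.34 and -3.43.

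HS5 (chr11:5291281-5291599, 21.4 kb upstream), the outermost site, showed the reverse presence. It had 49, 49 and 40 tags in V-K562 and 40, 53 and 59 in G-K562, and no called peak in B-K562. V-K562 and G-K562 overlapped at HS5.

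The other sites of the locus control region were open in all 3 lines and none was called. HS2 (chr11:5280530-5281040, in the first intron of the long HBE1 transcript) had 193, 224 and 180 tags in V-K562, 223, 185 and 195 in B-K562 and 340, 295 and 310 in G-K562. After scaling, HS2 was higher in G-K562 than in V-K562 by 0.31 on the log2 scale (SE 0.10; limma adjusted p = 0.034, and 0.079 to 0.10 without V-K562 replicate 1 or 3 or G-K562 replicate 1), under 2-fold. That rise was 0.66 with equal tags as the only scaling and 0.75 with scaling within 20 GC bins. G-K562 was above B-K562 at HS2 by 0.43 (SE 0.10; limma adjusted p = 0.0086). HS4 (chr11:5288103-5288529) had 112, 113 and 95 tags in V-K562, 128, 131 and 139 in B-K562 and 106, 91 and 67 in G-K562, a change of -0.64 in G-K562 against V-K562 (SE 0.19; limma adjusted p = 0.028, and 0.059 to 0.074 without V-K562 replicate 1 or 2 or G-K562 replicate 3). With equal tags as the only scaling the change at HS4 was -0.30, and with scaling within 20 GC bins it was -0.26, and neither passed the test. G-K562 against B-K562 gave -0.825 at HS4 (SE 0.17; limma adjusted p = 0.0047), under 2-fold. HS1 (chr11:5275630-5276165) had 107 to 146 tags over the 9 libraries, the lines overlapped, and no comparison passed the test with the main settings. G-K562 against V-K562 (log2 -0.41) passed under 4 of 12 alternatives (limma adjusted p = 0.021 to 0.037). These were mean pileup in place of the summit, a peak in every library, the replicate block, and leaving out V-K562 replicate 3. Within GC bins the change was 0.064.

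Between the gamma and epsilon genes, a region 4 kb upstream of HBG2 stood out in G-K562. This region (chr11:5258548-5259063) had 32, 46 and 33 tags in V-K562, 43, 45 and 28 in B-K562 and 147, 160 and 166 in G-K562. The G-K562 libraries were well above the rest, and V-K562 and B-K562 overlapped. It was called higher in G-K562 against V-K562 (log2 1.73, SE 0.16; limma adjusted p = 0.00034) and against B-K562 (log2 1.81, SE 0.20; limma adjusted p = 0.00014). All 9 libraries had a peak there, so no floor enters. HBG2 RNA was lowest in the same line.

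At the starts of the beta-type genes little was called. The region at the HBE1 start (chr11:5269801-5270198) had 46, 46 and 36 tags in G-K562, 21, 34 and 24 in B-K562 and a peak in only 1 V-K562 library (21 tags). Every G-K562 library was above the V-K562 peak, although HBE1 RNA was lower. At the HBD start (chr11:5234298-5234861) the lines overlapped, with 74, 52 and 34 tags in V-K562, 60, 54 and 48 in B-K562 and 53, 37 and 41 in G-K562. A region in the last exon of HBB (chr11:5225527-5225895) had 38, 37 and 38 tags in B-K562 and no peak in G-K562, and a region over the pseudogene HBBP1 (chr11:5243043-5243651) had 35, 51 and 34 tags in B-K562 and 1 peak of 25 tags in G-K562. In V-K562 each had a peak in 2 libraries, of 18 and 34 tags and of 23 and 35 tags.

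No region lay within 1 kb of the starts of HBG1, HBG2, HBA2 or HBB. Of the 42-base stretches in the 300 bases around the start, the length of an ATAC-seq read, 100% at HBG1 and HBG2 and 83.8% at HBA1 and HBA2 occur more than once on their chromosome, against 5.79% at HBB and 0% at HBE1. Only uniquely mapped reads were kept. Their part in the missing peaks was not tested.

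Of the known alpha enhancers, MCS-R1 and MCS-R4 had no called peak in G-K562, MCS-R3 was lower there, and MCS-R2 overlapped between G-K562 and V-K562. MCS-R1 (chr16:104907-105327, in an intron of NPRL3, 47.5 kb upstream of the HBZ start) had 43, 45 and 32 tags in V-K562, 60, 53 and 83 in B-K562 and no called peak in G-K562. B-K562 was above V-K562 in every library, and that difference did not pass the test (log2 0.53, SE 0.23; limma adjusted p = 0.12).

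MCS-R2 (chr16:113261-113921, also in an intron of NPRL3), the major alpha-globin enhancer, had the highest mean summit of the window in V-K562 and B-K562. It had 131, 188 and 160 tags in V-K562, 261, 247 and 256 in B-K562 and 187, 205 and 124 in G-K562. B-K562 was higher than V-K562 by 0.53 on the log2 scale (SE 0.12; limma adjusted p = 0.015) with no overlap, under 2-fold, while V-K562 and G-K562 overlapped. G-K562 was lower than B-K562 by 0.81 (SE 0.19; limma adjusted p = 0.011), also under 2-fold. MCS-R3 (chr16:119756-120380) had 62, 99 and 70 tags in V-K562, 63, 87 and 84 in B-K562 and 51, 35 and 41 in G-K562, and was called lower in G-K562 against V-K562 (log2 -1.18, SE 0.21; limma adjusted p = 0.0040) and against B-K562 (log2 -1.08, SE 0.21; limma adjusted p = 0.0041) with a peak in all 9 libraries. The fall against V-K562 was just under 2-fold without V-K562 replicate 2 (log2 -0.996) and with equal tags as the only scaling (log2 -0.84). That against B-K562 was under 2-fold with equal tags only (log2 -0.87), and without B-K562 replicate 2 or G-K562 replicate 2 (log2 -0.99 and -0.97).

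MCS-R4 (chr16:143009-143439, 9.4 kb upstream of the HBZ start, overlapping the distant first exon given for HBZ) was higher in B-K562 and unpeaked in G-K562. It had 36, 58 and 54 tags in V-K562, 104, 100 and 109 in B-K562 and no called peak in G-K562. B-K562 was higher than V-K562 by 0.94 on the log2 scale (SE 0.18; limma adjusted p = 0.0088), just under 2-fold (1.09 with equal tags as the only scaling and 1.08 within GC bins). A neighbouring region (chr16:144850-145228) had 60, 54 and 49 tags in B-K562, a peak in 2 of 3 V-K562 libraries (28 and 39 tags) and none in G-K562.

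At the starts of the alpha-type genes, B-K562 had peaks that the other lines lacked. The region over the HBA1 start (chr16:176508-176820, including the first exon) had 86, 80 and 106 tags in B-K562 and no called peak in V-K562 or G-K562. A region 0.9 kb upstream of the HBM start (chr16:164999-165247) was likewise peaked only in B-K562, with 34, 34 and 33 tags.

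HBZ and HBQ1 had accessible starts in more than one line. The region at the HBZ start (chr16:152348-152863) had 37, 27 and 29 tags in V-K562, 56, 53 and 62 in B-K562 and 30, 41 and 37 in G-K562. B-K562 was higher than V-K562 by 0.72 on the log2 scale (SE 0.21; limma adjusted p = 0.036). That difference missed the threshold within GC bins (limma adjusted p = 0.071) and with the replicate block (0.055). It also did so without V-K562 replicate 2 or 3 or any single B-K562 library (0.076 to 0.11). G-K562 and V-K562 overlapped although HBZ RNA differed 5.83-fold between them. G-K562 was lower than B-K562 by 0.87 on the log2 scale (SE 0.20; limma adjusted p = 0.0094), under 2-fold. Over the HBQ1 start (chr16:180294-180786) peaks were called in 1 V-K562, 1 B-K562 and 2 G-K562 libraries only. The region over the last exon of HBQ1 (chr16:181015-181730) had 53, 73 and 57 tags in V-K562, 113, 107 and 87 in B-K562 and 112, 99 and 128 in G-K562, and passed the test at under 2-fold in both lines (limma adjusted p = 0.028 and 0.025). With scaling within GC bins neither passed (adjusted p = 0.15 and 0.32). The plot of cluster accessibility shows all 34 regions.

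**Figure D4:**
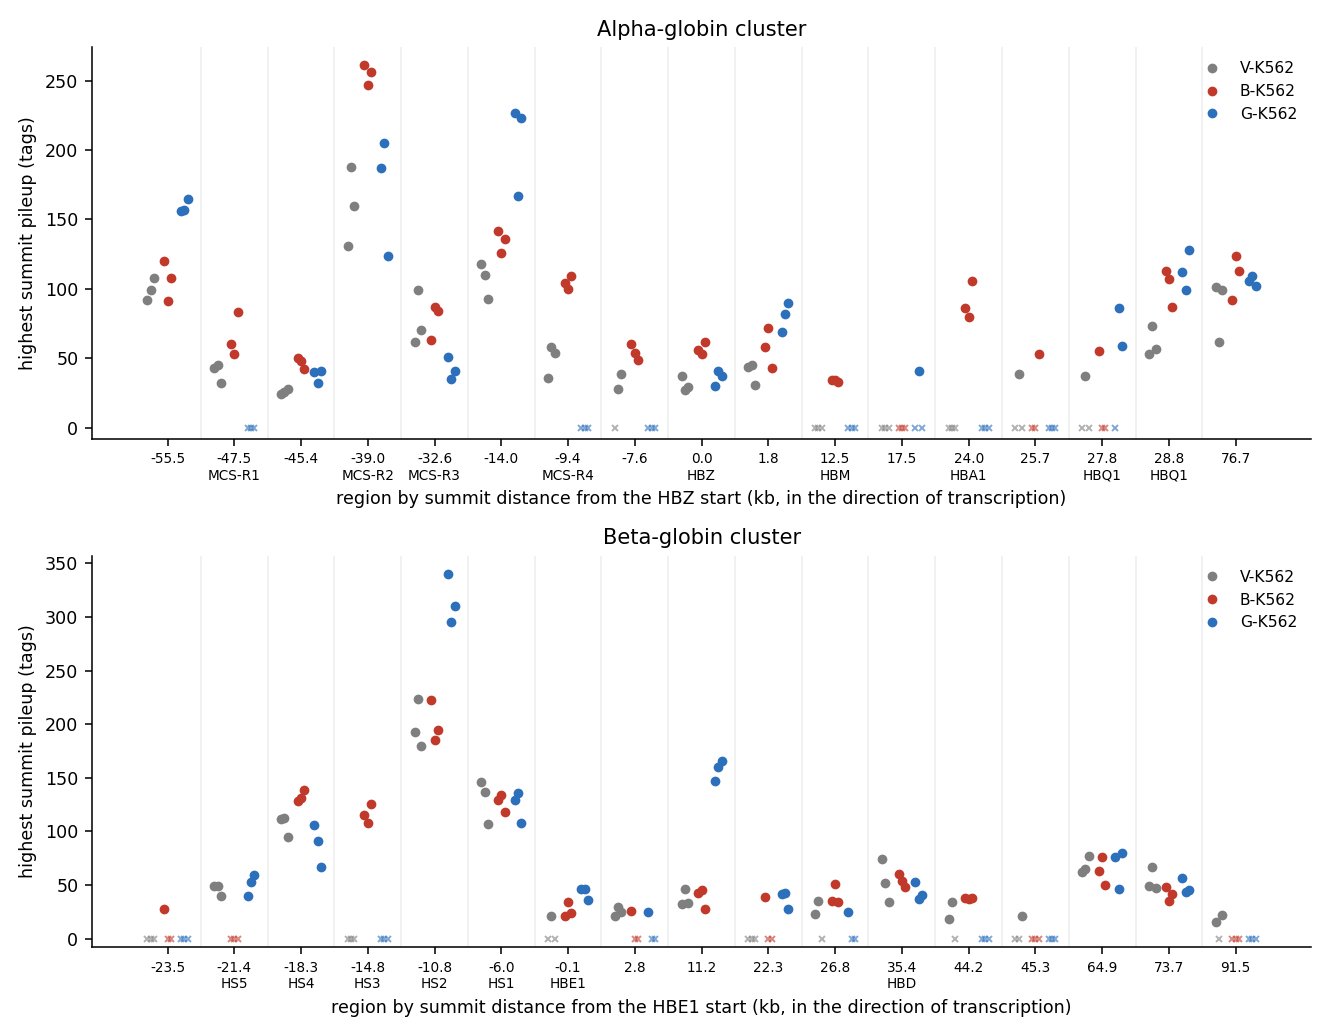
Highest summit pileup in tags, before scaling, of each region around the alpha cluster (top, by kb from the HBZ start) and the beta cluster (bottom, by kb from the HBE1 start), evenly spaced in order with 1 point per library. Crosses at 0 mark libraries without a called peak. HS3 and the HBA1 start are peaked only in B-K562, HS5 is missing from B-K562, MCS-R1 and MCS-R4 are missing from G-K562, and the region 11.2 kb downstream of the HBE1 start is highest in G-K562 (147 to 166 tags).

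Values of genes outside the globin family are given on the scale of the G-K562 table, on which B-K562 values are multiplied by 1.017. Of the genes overlapping the windows that are not globins, 2 lie inside the beta cluster and the others flank the clusters. HBBP1, a globin pseudogene between HBD and HBG1, read 492 to 688 in the V-K562 libraries, 1332 to 1412 with wild-type BASP1 and 143 to 201 with BASP1-G2A. It was called higher in B-K562 (log2 1.23, SE 0.10; limma adjusted p = 5.5e-08) and lower in G-K562 (log2 -1.78, SE 0.14; limma adjusted p = 7.8e-07). BGLT3, a noncoding RNA gene beside it, was called higher in B-K562 (log2 1.14) and lower in G-K562 (log2 -1.02). These 2 were the only genes called in these comparisons among the 5 overlapping the beta window, of which 4 were tested. OR51B4, an olfactory receptor gene upstream of the cluster, rose in G-K562 (log2 0.74, SE 0.08; limma adjusted p = 7.7e-06). Around the alpha cluster, 0 of 2 genes were called. NPRL3, which holds MCS-R1 to MCS-R3 in its introns, changed by -0.12 in B-K562 (limma adjusted p = 0.027) and by -0.68 in G-K562 (limma adjusted p = 1.1e-06), and LUC7L by 0.26 (limma adjusted p = 0.00040) and -0.13 (limma adjusted p = 0.090).

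The proteins that assemble hemoglobin and supply its heme were mixed in B-K562 and mostly lower in G-K562. Of 22 listed genes 21 were tested. In B-K562 against V-K562, 12 rose and 7 fell (median log2 0.16), and 2 were called higher and 0 lower with the 2-fold rule, where 38.6% of all genes rose, 37.2% fell, 6.46% were called higher and 14.1% lower. In G-K562 against V-K562, 2 rose and 16 fell (median -0.66), and 5 were called lower and 0 higher, where 33.5% of all genes rose, 33.3% fell, 10.3% were called lower and 8.81% higher. AHSP, the chaperone of free alpha chains, read 487, 463 and 334 in V-K562, 1763, 1617 and 1550 in B-K562 and 1, 11 and 8 in G-K562. It rose by 1.96 on the log2 scale in B-K562 (SE 0.11; limma adjusted p = 3.4e-09) and fell by 6.14 in G-K562 (SE 0.51; limma adjusted p = 1.0e-06).

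Among the enzymes of heme synthesis, ALAS2, the erythroid enzyme of the first step, rose by 0.69 on the log2 scale in B-K562 and fell by 0.77 in G-K562. CPOX (coproporphyrinogen oxidase) fell in both lines (log2 -0.91 in B-K562 and -2.83 in G-K562). UROD, FECH (ferrochelatase, which inserts the iron) and PPOX were called lower in G-K562 (log2 -1.16, -1.15 and -1.02). In G-K562 against B-K562, 2 of the 21 rose and 18 fell, with 8 called lower. Of all genes, 38.1% rose, 40.5% fell and 12.5% were called lower in that comparison. TFRC, the transferrin receptor, rose in B-K562 by 0.90 and in G-K562 by 0.56.

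Known regulators of the globin genes changed by small factors for the most part. Of 39 listed, 38 were tested. In B-K562 against V-K562, 27 rose and 7 fell (median 0.40), with 2 called higher and 1 lower. Of all genes, 38.6% rose, 37.2% fell, 6.46% were called higher and 14.1% lower. In G-K562 against V-K562, 15 rose and 11 fell (median 0.06), with 0 called higher and 3 lower. Of all genes, 33.5% rose, 33.3% fell, 8.81% were called higher and 10.3% lower. The share called higher in B-K562 was near that of all genes. KLF1, an activator of adult globin genes, read 2558, 2662 and 2428 in V-K562, 4827, 4765 and 4443 in B-K562 and 1019, 951 and 781 in G-K562. It rose by 0.88 on the log2 scale in B-K562 and was called lower in G-K562, by 1.48 (SE 0.09; limma adjusted p = 8.6e-08).

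LMO2, a bridging factor of the erythroid GATA1 and TAL1 complex, was called lower in G-K562 (log2 -1.26), as was KDM1A, a histone demethylase (log2 -1.02). GATA1 itself rose by 0.22 in B-K562 and fell by 0.56 in G-K562. SOX6, a repressor of embryonic globin, read 227, 242 and 252 in V-K562, 50.9, 38.7 and 36.6 in B-K562 and 341, 375 and 407 in G-K562, and was called lower in B-K562 (log2 -2.50, SE 0.14; limma adjusted p = 2.8e-09). LIN28B, an RNA-binding protein that favours fetal globin, and ZFPM1, the GATA1 partner FOG1, were called higher in B-K562 by 1.64 and 1.33. BCL11A, the repressor of the gamma genes, was under the minimum value, with means of 2.0 in V-K562, 0.339 in B-K562 and 0 in G-K562. In G-K562 against B-K562, 9 regulators rose and 24 fell. SOX6 (log2 3.13) and NFE2L2 (1.03) were called higher and 7 were called lower, KLF1 the most (-2.36). Of all genes, 38.1% rose, 40.5% fell, 17.4% were called higher and 12.5% lower.

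Genes for erythroid membrane and blood group proteins were mostly higher in B-K562 and lower in G-K562. All 18 listed genes were tested. In B-K562 against V-K562, 13 rose and 2 fell (median 0.75), with 4 called higher, beside 38.6%, 37.2% and 6.46% of all genes. In G-K562 against V-K562, 0 rose and 15 fell (median -1.19), with 10 called lower, beside 33.5%, 33.3% and 10.3%. SPTB, the erythroid beta spectrin, read 2605, 3075 and 2425 in V-K562, 6436, 6742 and 6897 in B-K562 and 317, 300 and 268 in G-K562. It rose by 1.32 on the log2 scale in B-K562 (SE 0.07; limma adjusted p = 2.0e-09) and fell by 3.19 in G-K562 (SE 0.10; limma adjusted p = 4.0e-10). EPB42 (protein 4.2), ANK1 (ankyrin) and SLC4A1 (band 3) were the others called higher in B-K562, by 1.65, 1.13 and 1.10. ACKR1, the Duffy antigen, and EPB42 were called lower in G-K562 (log2 -4.22 and -2.55). In G-K562 against B-K562, 0 rose and 17 fell, with 14 called lower, beside 38.1%, 40.5% and 12.5% of all genes.

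**Figure D5:**
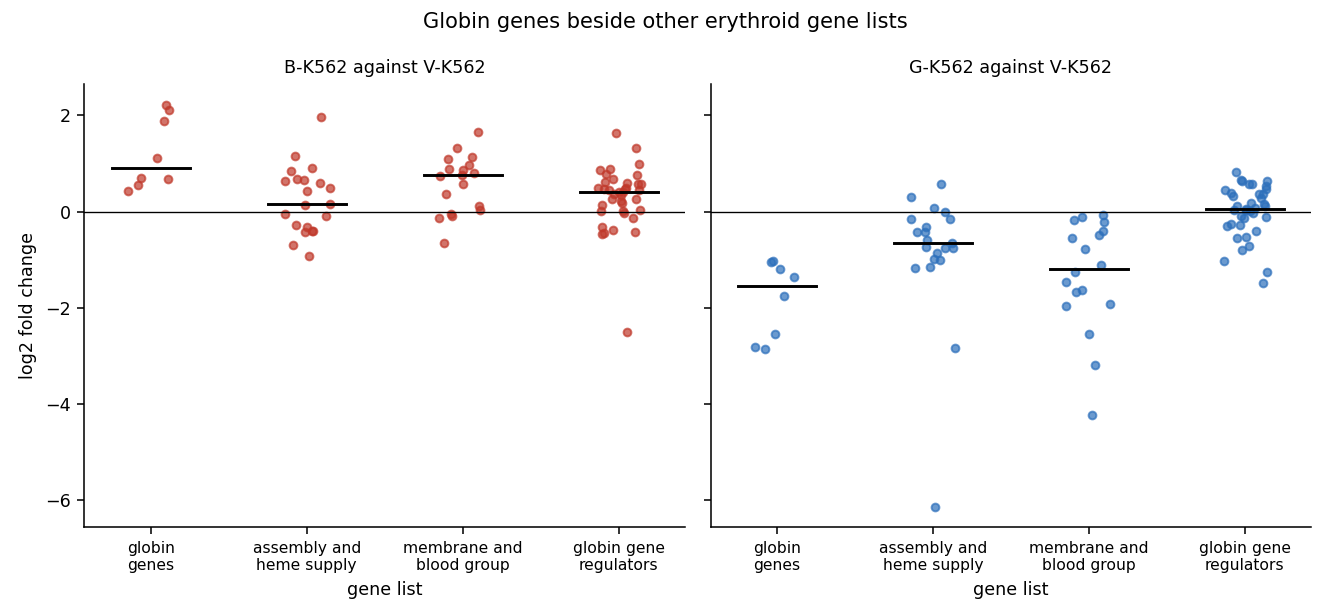
Log2 fold change of each tested gene of the globins and of 3 erythroid lists in B-K562 (left) and G-K562 (right) against V-K562, with a bar at the list median and random sideways spread of the points. Globin medians are 0.91 and -1.55, those of the membrane and blood group list 0.75 and -1.19, and those of the regulators 0.40 and 0.06.

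Other genes were ranked by how closely their levels followed the summed globins over the 9 libraries, with the globin genes themselves left out. Of the 3 genes closest to each cluster, only ABCB10 was among the listed erythroid genes. To the sum of the alpha cluster these were ABCB10, a mitochondrial transporter of erythroid cells (Pearson r = 0.9991 of log2 values), RBM17 (0.9990) and ACTL8 (0.9987). To the beta cluster they were PDHA1 (0.9986), MOCS2 (0.9983) and PRPF38A (0.9982). The 9 points come from 3 lines, so these values mostly follow the 3 line means. ACTL8 averaged 60.0 in V-K562, 1290 in B-K562 and 2.0 in G-K562, a far wider range than ABCB10 with 2141, 3843 and 1181.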

How the data were processed

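RNA-seq and ATAC-seq were analysed in 3 libraries per line, 18 in all, grouped by the condition in the labels. The deposited RNA-seq values, read here as a signal, are the authors' DESeq2-normalized counts per gene: reads were aligned to GRCh38 with STAR, counted with Subread on RefSeq genes and divided by size factors, in one table per BASP1 line with the V-K562 libraries in both. The paper gives removal of duplicate reads for RNA-seq and ATAC-seq together. Its effect on the most abundant transcripts, such as HBE1 and HBG2, was not tested. Whole reads could not be recovered, so read depth is unknown and no counting interval is given. The tables also hold the authors' group means, fold changes and p-values, and the peak file the authors' annotation, none of which were used. For ATAC-seq the deposited values are the summit and average coverage of MACS2 peaks called per library, after BWA alignment, removal of duplicates and scaling to equal tags by the authors. Interval starts were read as 0-based and are given 1-based.

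RNA values of at least 10 in 3 libraries were tested as log2(value + 1) with limma 3.58.1 (R 4.3.3), in the libraries compared, with Benjamini-Hochberg adjustment over all genes. For G-K562 against B-K562 all 9 libraries were fitted, with B-K562 values multiplied by 1.017, the mean ratio of the V-K562 values in the tables. Overlapping peaks were merged into 85549 regions. Summits were scaled by a trimmed mean (30% of log ratios, 5% of means) over the regions peaked in every library of the comparison, set to at least 17 tags (the 5th percentile), and tested where at least 3 libraries had a peak. A call needed an adjusted p of at most 0.05 and a 2-fold change. All 10 globin genes are named, with regions within 1 kb of their starts, called regions, called genes of each list (up to 4 per comparison) and the 3 genes most like each cluster sum. The named enhancers were added for their identity, after their values were seen. The lists covered hemoglobin assembly and heme supply, globin gene regulators, erythroid membrane and blood group proteins, other globin-fold proteins and cell type markers. Some genes of these lists are not reported here by name. The globin genes and all lists were chosen with earlier results of these data known. Gene starts are those of GENCODE canonical transcripts. Fits were tested on simulated data. Culture replicates of pools share their transfection, so p-values do not cover variation between independent transfections. Other scalings, filters, pseudocounts and floors, a replicate block and leaving out each library were tried.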

Additional observations from a re-analysis of the deposited data

Results flagged for a closer look

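For 8 globin transcripts the effects of the wild-type and mutant protein against V-K562 differed in direction, and the difference between G-K562 and B-K562 was itself tested over the 9 libraries (limma, adjusted p of at most 0.05 for each). On the log2 scale it was -2.87 for HBA1, -3.32 for HBA2, -4.77 for HBZ, -1.79 for HBQ1, -1.58 for HBE1, -3.54 for HBG1, -3.50 for HBG2 and -2.93 for HBD, and it had this sign in all 3 G-K562 libraries against all 3 B-K562 libraries. Among the regions of the windows, MCS-R4 (chr16:143009-143439) met the same condition, with a difference of -2.56 between G-K562, which had no called peak there, and B-K562. That value is set by the floor of 17 tags and is not a measured ratio. The comparisons with V-K562 share its libraries.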

How the results depend on the processing

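The globin transcripts tested kept their direction and an adjusted p of at most 0.05 under the alternatives run. These were equal library totals, trimmed-mean scaling, other filters and pseudocounts, the replicate block and leaving out each library for all 8, summed copies, which leave 6 to test, and, for G-K562 against B-K562 alone, a factor per replicate number between the tables. Without the fold criterion, 8 instead of 4 members were called higher in B-K562 against V-K562. Leaving out 1 library gave 3 to 4 members called higher there, 6 to 8 lower in G-K562 against V-K562 and 8 in G-K562 against B-K562. Over all 14425 to 15447 genes tested, these calls numbered 875 to 1024, 1211 to 1626 and 1874 to 2014. Without the filter, HBM joined the calls in B-K562 and HBB those in G-K562 (limma adjusted p = 0.017 and 0.0017), at values too low for a fold.

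Libraries with the same replicate number showed little shared deviation from their line means (correlation -0.08 to 0.136 for RNA and 0.007 to 0.121 for ATAC-seq). The labels do not say whether cultures were paired, and these low correlations cannot settle it. With the replicate block the counts were unchanged (4, 8 and 8 transcripts), and of the single results HBZ's start region in B-K562 missed the threshold (adjusted p = 0.055) and HS1 in G-K562 against V-K562 passed it (0.026).

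Counts of called regions moved more. In B-K562 against V-K562, 8 were higher without the fold criterion, 4 with equal tags only and 4 with scaling within 20 GC bins, and 0 were higher and 0 lower where a peak in every library was required, which drops the regions peaked in 1 line. Leaving out 1 library gave 0 to 4 higher and 0 to 1 lower. Over all 52204 regions tested, 797 were higher and 3211 lower in the main fit. Of these regions 1186 were higher with equal tags only and 936 within GC bins. Leaving out 1 library gave 364 to 926 higher and 2003 to 3105 lower over all 46677 to 49468 regions tested. In G-K562 against V-K562, 8 were higher and 5 lower without the fold criterion, 3 were higher with equal tags only, within GC bins or with a floor of 10 tags, and 1 was lower with a peak in every library. Leaving out 1 library gave 1 to 2 higher and 0 to 3 lower. Over all 54213 regions tested, 1556 were higher in the main fit. The number was 4324 with equal tags only, 1818 within GC bins and 2861 with a floor of 10 tags. With a peak in every library 2397 of 30775 were lower. Leaving out 1 library gave 874 to 1843 higher and 4546 to 7104 lower over all 47082 to 50409 regions tested. In G-K562 against B-K562, 4 were higher and 13 lower without the fold criterion and 1 and 1 with a peak in every library. Leaving out 1 library gave 2 higher and 4 to 8 lower. Over all regions the numbers were 745 and 1698 of 26984 with a peak in every library. Leaving out 1 library gave 2022 to 2654 higher and 4874 to 5298 lower over all 57008 to 58419 regions tested. Calls over all regions without the fold criterion were not counted, so the window counts without it have no share beside them. The cause of the changes with scaling was not tested.

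Of 651 single region values under alternatives, 588 kept their direction and side of the threshold, 27 lost it, 13 passed it and 23 changed sign, and each of those 23 missed the threshold both ways. In B-K562 against V-K562, MCS-R3 was at 0.033 with equal tags only and at -0.25 to 0.060 without single libraries, the HBD start at 0.080 with equal tags, 0.231 within GC bins and -0.355 to 0.205 without single libraries (0.018 without B-K562 replicate 3), the region upstream of HBG2 at 0.052 with equal tags and -0.21 to 0.121 without single libraries (0.051 without V-K562 replicate 2), HS1 at 0.129 within GC bins, and HS2 at 0.016 with equal tags and 0.098 within GC bins. Without B-K562 replicate 1, MCS-R3 was at 0.053. In G-K562 against V-K562, MCS-R2 was at 0.090 with equal tags and -0.401 to 0.000 without single libraries, the HBZ start at 0.211 with equal tags and -0.229 to 0.012 without single libraries (0.009 without V-K562 replicate 1), HS1 at 0.064 within GC bins, and HS5 at 0.125 with equal tags and 0.246 within GC bins. In G-K562 against B-K562, the last exon of HBQ1 was at 0.143 with equal tags and -0.177 to 0.007 without single libraries. Against V-K562, HS2 and HS4 in G-K562 and the last exon of HBQ1 in both lines missed the threshold under 3 to 5 alternatives each. The HBZ start in B-K562 against V-K562 missed it under 7 of 12 alternatives. HBM and HBB were too low for a fold, and a missing peak sets no level.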

Other observations

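Globin-fold proteins outside the clusters were low in all lines. CYGB (cytoglobin) averaged 21 in V-K562, 12.5 in B-K562 and 28.7 in G-K562, and G-K562 was called above B-K562 (log2 1.13, SE 0.25; limma adjusted p = 0.00096). MB (myoglobin) averaged 5.67, 5.08 and 13.0 and was called higher in the same comparison (log2 1.61, SE 0.59; limma adjusted p = 0.022). Its values were near the minimum of 10 and overlapped, with 1.02, 12.2 and 2.03 in B-K562 and 16, 7 and 16 in G-K562. NGB (neuroglobin) and ADGB stayed under 10 in mean in every line and were not tested.

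Markers of other blood cells and of fibroblasts were measured beside the globins, and their part in the globin results was not tested. The summed level of 6 megakaryocyte markers was 4300 to 4656 in the V-K562 libraries, 1617 to 1893 in those of B-K562 and 701 to 1081 in those of G-K562, nearly all of it ITGA2B, which was called lower in both lines (log2 -1.31 and -2.39). GP9 was at 0 in B-K562 and G-K562. The 6 granulocyte and monocyte markers summed to 1394 to 1501 in the V-K562 libraries, 1683 to 1822 in those of B-K562 and 4108 to 4630 in those of G-K562, mostly LYZ (lysozyme), which rose by 1.55 in G-K562. EPX (eosinophil peroxidase) averaged 7.33, 275 and 6.33, and ELANE was at 0 in B-K562. The 4 lymphoid markers summed to between 69.2 and 155 per library, with MS4A1 at 0 in every line. The sum of the 3 fibroblast markers was between 616 and 1443 per library, mostly COL1A1. B-K562 replicate 1 stood apart in the fibroblast markers, with COL3A1 at 584.8 against 4.07 and 2.03 in the other B-K562 libraries and DCN at 65.1 against 13.2 and 16.3. Without that library the tested globin transcripts kept their direction and side of the threshold.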
